A study of Glycine max with 18 samples.

Results

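A set of 87 genes had less RNA in every library of the soybean mutant TW-1-M than in any library of the mutant TW-1. They were found among the 27150 genes of the deposited table that reached an FPKM of 1 in 3 or more of the 18 libraries, where FPKM counts fragments per length of transcript and per size of the library. A gene belonged to the set when its highest FPKM in the 9 TW-1-M libraries was below its lowest FPKM in the 9 TW-1 libraries, with no split by the 3 germination stages. 89 genes (0.328% of those tested) met this rule, and 2 of them were taken out because the study had already listed or discussed them among its own candidate genes. The rule was applied to FPKM as deposited, and with each library scaled to the same summed FPKM it gave 37 genes (36 of the 87), with quantile normalization 72 genes (54 of the 87), and 29 members met it under both. The mirrored rule gave 56 genes that were always higher in TW-1-M. The members were selected on the difference between the lines, so this difference is described below and not tested.

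Both lines are low phytate mutants with the same 2-bp deletion in the gene of myo-inositol phosphate synthase GmMIPS1. TW-1-M came from a single plant found within the TW-1 line, and TW-1 was made from the variety Taiwan 75 by gamma irradiation. RNA of whole seeds was sequenced in 3 replicates per line at stage 1 (imbibed seed), stage 2 (metabolism reactivation, which the labels place 12 h after the end of imbibition) and stage 3 (primary root of 1 mm). The study itself gives other hours, counted from the soaking of the seeds. The groups are called TW-1-M-1, TW-1-M-2 and TW-1-M-3, and TW-1-1, TW-1-2 and TW-1-3. Each line was 1 line with its own harvested seed, germinated in the dark, so the mutation of TW-1-M and other differences between the seed lots cannot be told apart.

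Phytate is the main phosphorus store of a seed and is made from myo-inositol phosphate. During imbibition a dry seed takes up water, and then stored RNA is broken down, respiration resumes and new RNA is made, until cells of the embryonic axis elongate and the root comes out. RNA of a whole seed comes from the cotyledons, the axis and the seed coat, and fewer cells of a type cannot be told apart from less RNA per cell.

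The summed FPKM was 683231 to 1091560 in the TW-1-M libraries and 793482 to 1296620 in the TW-1 libraries. Of 14 genes listed as markers of seed storage tissue 10 were matched to the table, and none of these was at 0 in all libraries. Their summed FPKM was 192 to 11230 in TW-1-M and 1136 to 14340 in TW-1, so the ranges overlapped. LOX3 alone had 106 to 10117 FPKM in TW-1-M and 849 to 12152 FPKM in TW-1, so the sum says little about the other markers. These went both ways. The highest value of GY2 was 274 FPKM in TW-1-M and 1143 FPKM in TW-1, that of GY3 10.04 and 0.29 FPKM, and that of CG-1 515 and 320 FPKM. The part of the marker levels in the members' difference was not tested. The 3 matched genes for green seedling tissue summed to 68.4 to 1953 FPKM in TW-1-M and 54.9 to 2504 in TW-1. The library TW-1-3 replicate 1 stood apart from the other libraries of its group: 68 of the 87 members (78.2%) had a higher FPKM in it than in TW-1-3 replicates 2 and 3, against 44.4% of all genes tested. The stage counts, the median at stage 3 and the tests that use it are given with and without it.

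The members ranged from rare to abundant transcripts. In TW-1 the mean FPKM was at least 100 for 10 members, 10 to 100 for 33, 1 to 10 for 41 and below 1 for 3. The median of the members' means was 2.76 FPKM in TW-1-M and 8.55 FPKM in TW-1, and that of all genes tested was 6.42 FPKM in TW-1-M and 6.23 FPKM in TW-1. The mean of TW-1 was at least 10 times that of TW-1-M (or TW-1-M was at 0) in 19 members, 2 to 10 times in 41 and below 2 times in 27. On the log2(FPKM + 1) scale, on which the change of genes near 0 is understated, the median difference of TW-1-M minus TW-1 was -1.01 over the members and 0.02 over all genes tested.

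**Figure D1:**
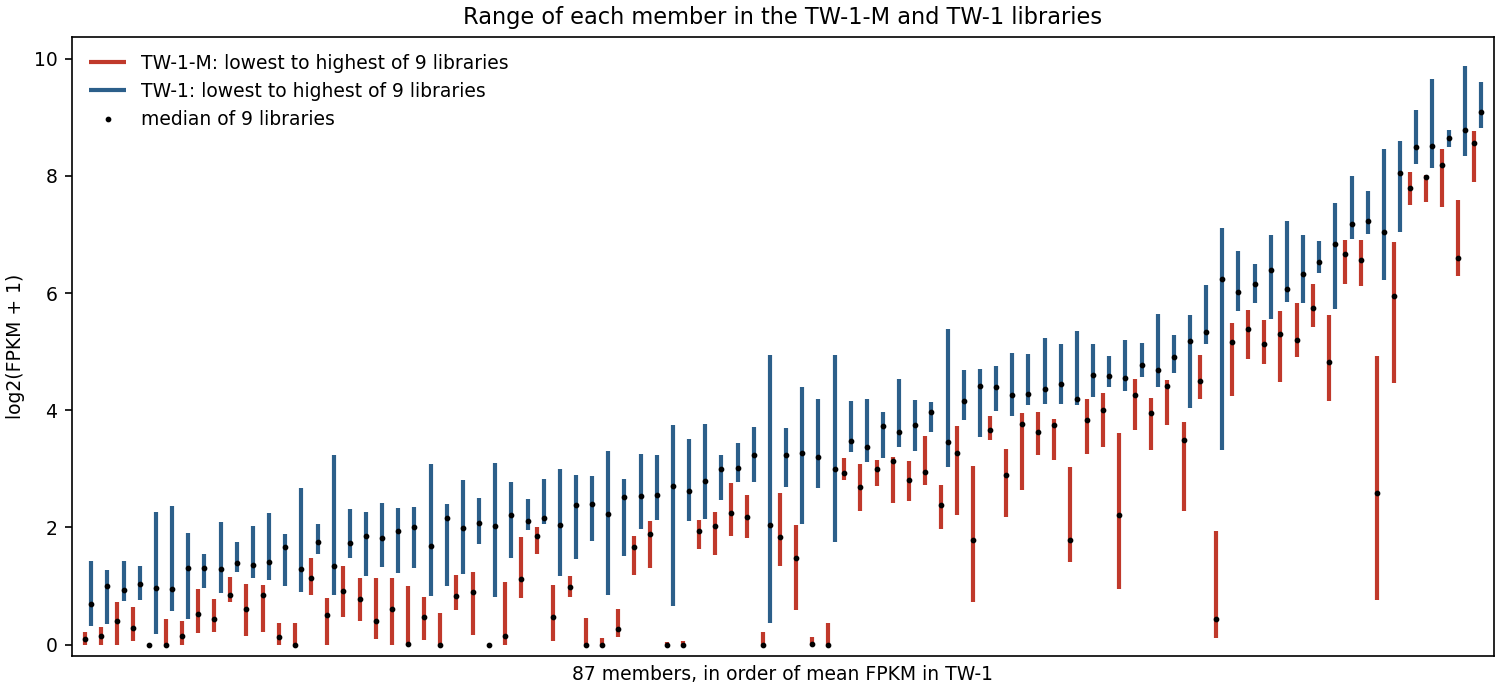
Range of each of the 87 members over the 9 libraries of TW-1-M (red, left bar) and of TW-1 (blue, right bar), as log2(FPKM + 1), with members in order of mean FPKM in TW-1 and the median as a black point. The bars of a member never overlap, which the rule requires, and the space between them is below 0.1 on the log2 scale for 32 members.

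For most members the lines lay close together at the threshold. The gap, which is the lowest TW-1 value minus the highest TW-1-M value in log2(FPKM + 1), was at least 1 in 7 members, at least 0.5 in 16 and below 0.1 in 32. Just inside the threshold stood LOC100807452, with a highest value of 55.67 FPKM in TW-1-M and a lowest value of 55.79 FPKM in TW-1, and the zinc finger gene LOC100793782 (ZAT11-like), with 0.76 FPKM in TW-1-M and 0.77 FPKM in TW-1. Just outside it were LOC100812597, with 1.88 FPKM on both sides, and LOC100817326, with 1.53 FPKM on both sides. The lowest TW-1 value lay at stage 3 in 48 members, and in TW-1-3 replicate 2 or 3 in 43. The highest TW-1-M value was spread over stage 1 (34 members), stage 2 (22) and stage 3 (31).

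Of the 87 members 72 were matched to a gene symbol of RefSeq, all of them protein coding, and 42 had a description in the files of the study. The table gives 1 row per gene, and how the authors treated reads that fit more than one copy of a duplicated soybean gene is not given in the sources used here, so members with close copies are uncertain. The descriptions were sorted by the words in them, each into the first class that matched. This gave 10 uncharacterized proteins, 3 hydrolases, 2 cytochromes P450, 2 oxidoreductases, 1 transcription factor, 1 protein of the ubiquitin pathway and 23 others. In the same order the classes held 578, 167, 34, 170, 123, 52 and 1514 of all genes tested. Of the 27150 genes tested 24042 had no description, so these numbers count described genes only and are not the full size of each class. The words do not give every function, so TRANSPARENT TESTA 1-like LOC100802773 and POB1-like LOC100818740 stand among the others. Only genes with a description could be placed in a class, so nothing is read from classes without a member.

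The widest gap belonged to LOC100807762, described as villin-4-like, a protein of the family that bundles actin filaments. It had 0, 0.01 and 0.09 FPKM (lowest, median and highest) in TW-1-M, against 5.40, 8.21 and 17.23 FPKM in TW-1, a log2 difference of -3.35. All 9 TW-1-M libraries were near 0, while TW-1 was expressed at every stage, with 13.4 ± 4.68 FPKM at stage 1, 10.1 ± 3.21 at stage 2 and 6.72 ± 1.18 at stage 3 (SD, n = 3 libraries each). The transcript XR_001385765.1, which had no description, had a similar pattern, with 0, 0 and 0.05 FPKM in TW-1-M and 3.32, 5.17 and 10.39 FPKM in TW-1. Both passed the filter only through TW-1.

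ZPR3A encodes a LITTLE ZIPPER protein. In Arabidopsis these small leucine zipper proteins bind class III homeodomain-leucine zipper transcription factors and inhibit them. ZPR3A had 0.08, 0.36 and 2.84 FPKM in TW-1-M, against 8.96, 74.59 and 136.74 FPKM in TW-1. On the log2(FPKM + 1) scale its difference of -5.07 was larger in size than that of any other member. The ratio of mean FPKM, TW-1 over TW-1-M, was 104, and members nearer 0 in TW-1-M had larger ratios, up to 1597 in XM_014768785.1. The level of ZPR3A in TW-1 was 109 ± 27.5 FPKM at stage 1, 50.5 ± 21.6 at stage 2 and 34.6 ± 38.4 at stage 3 (SD, n = 3 each). At stage 3 the spread came from 1 library, since replicate 1 had 78.73 FPKM and replicates 2 and 3 had 8.96 and 15.97 FPKM. In TW-1-M the highest value was that of TW-1-M-2 replicate 2, and the other 8 libraries were at 0.66 FPKM or below.

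A protein degrading and a sugar releasing enzyme differed at a high level of expression. LOC100782377, a metalloendoproteinase 5-MMP-like of the zinc-dependent matrix proteases, had 0.69, 5.02 and 29.42 FPKM in TW-1-M, against 73.79, 130.38 and 350.92 FPKM in TW-1 (log2 difference -4.77). It varied widely inside each line, and the order of the highest TW-1-M and the lowest TW-1 library is what the rule requires. LOC100813194, a beta-glucosidase 44, which belongs to the enzymes that release glucose from glucosides, had 77.54, 95.9 and 191.97 FPKM in TW-1-M and 323.02, 437.21 and 940.28 FPKM in TW-1 (log2 difference -2.22). The third hydrolase, LOC100812330, is an alpha-galactosidase 1, an enzyme family that removes galactose from the raffinose family sugars of seeds, and had 17.91, 34.95 and 44.11 FPKM in TW-1-M against 50.76, 63.48 and 104.6 FPKM in TW-1 (log2 difference -0.96). It met the rule neither with each library scaled to the same summed FPKM nor with quantile normalization. The metalloendoproteinase and the beta-glucosidase met it with both.

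LOC100527718, the ubiquitin carboxyl-terminal hydrolase isozyme L3, removes ubiquitin from small adducts. It had 1.66, 2.44 and 7.16 FPKM in TW-1-M and 15.94, 17.28 and 39.98 FPKM in TW-1, with a log2 difference of -2.58. As with ZPR3A, the highest TW-1-M value was in TW-1-M-2 replicate 2, and the other TW-1-M libraries did not exceed 4.19 FPKM. LOC100779547, a polyadenylate-binding protein 7-like of the family that coats the poly(A) tail of mRNA, had 0.09, 0.2 and 0.52 FPKM in TW-1-M and 1.86, 4.74 and 6.1 FPKM in TW-1 (log2 difference -2.09). The log2 difference of LOC100527718 was -2.03 at stage 1, -2.46 at stage 2 and -3.25 at stage 3, and that of LOC100779547 was -2.07, -2.42 and -1.78.

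**Figure D2:**
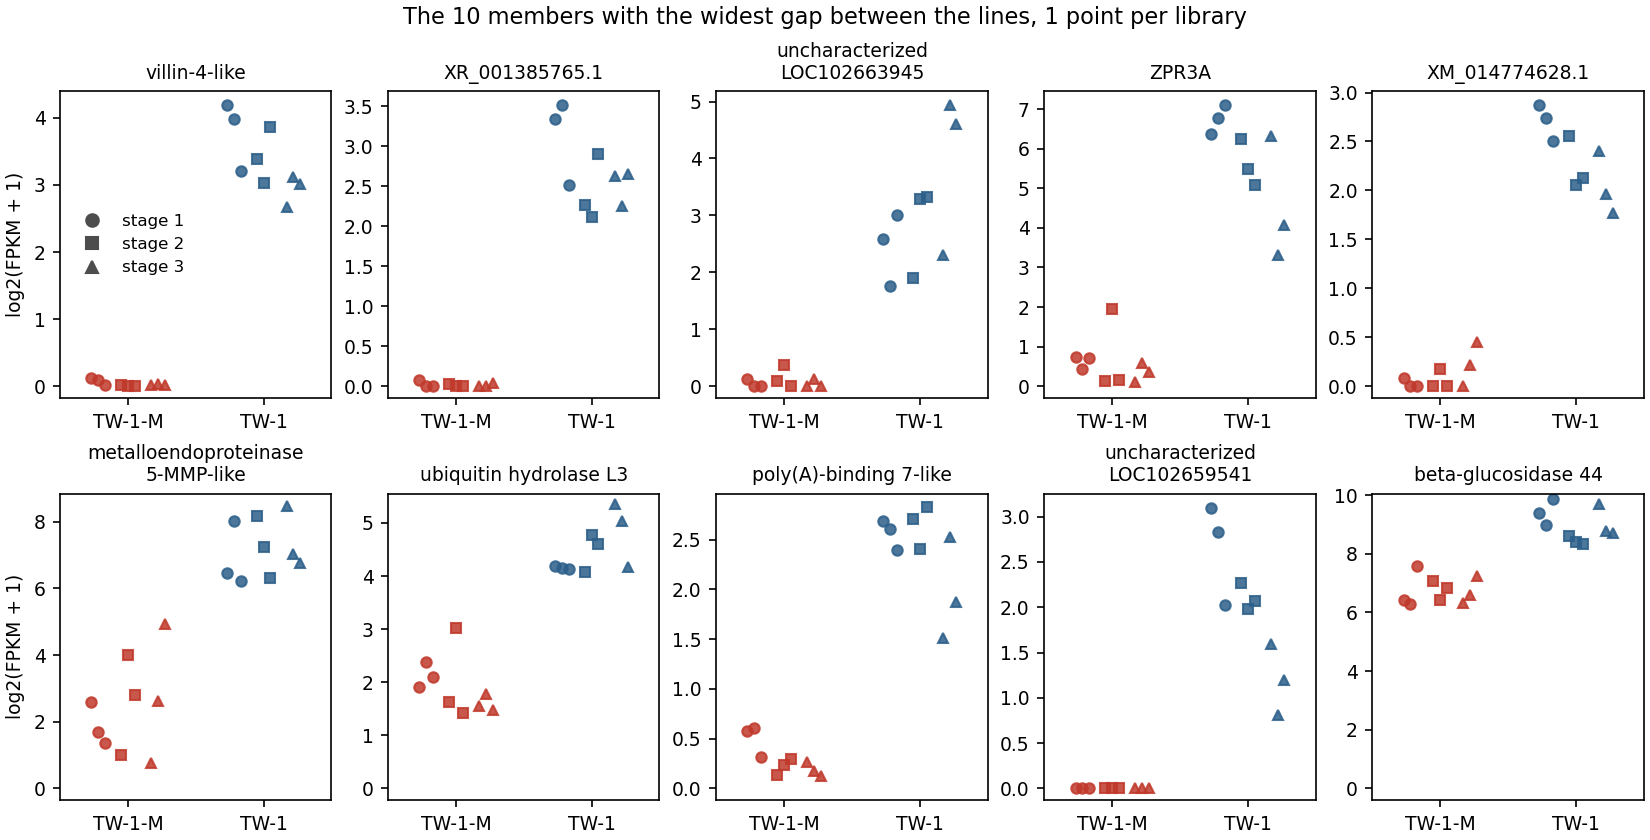
The 10 members with the widest gap, with 1 point per library as log2(FPKM + 1), TW-1-M left and TW-1 right, and the stage given by the symbol. In villin-4-like and LOC102659541 the TW-1-M points lie at or near 0 at every stage, and in beta-glucosidase 44 both lines are well above 0.

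Some members had almost no RNA in TW-1-M. In 23 members all TW-1-M libraries were below 1 FPKM. These passed the filter only through TW-1, so a lower level in TW-1-M was built into their choice. Of all genes tested 4 were at 0 in every TW-1-M library and 5 were at 0 in every TW-1 library. LOC102659541 and LOC102665998, both uncharacterized, were listed at 0 FPKM in all 9 TW-1-M libraries, so no fold was computed. In TW-1 they had 0.75, 3.07 and 7.58 FPKM (LOC102659541) and 0.13, 0.95 and 3.83 FPKM (LOC102665998). In all, 6 members were below 0.1 FPKM in every TW-1-M library, and 7 were below 1 FPKM in every TW-1-M library and at 1 FPKM or above in every TW-1 library. The undescribed transcripts XM_014774628.1 and XM_014779472.1 were similar. XM_014774628.1 had 0, 0 and 0.37 FPKM in TW-1-M, against 2.4, 4.3 and 6.31 FPKM in TW-1, and XM_014779472.1 had 0, 0 and 0.08 FPKM in TW-1-M, against 0.79, 3.71 and 8.91 FPKM in TW-1.

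The low-temperature-induced 65 kDa protein-like gene XM_014768785.1 was also near 0 in TW-1-M. Its namesake in Arabidopsis is induced by cold, drought and abscisic acid. It was listed at 0 FPKM in all TW-1-M libraries except TW-1-M-2 replicate 2, which had 0.03 FPKM. In TW-1 the libraries had 11.35, 5.55 and 12.48 FPKM at stage 1, 6.28, 3.1 and 7.29 FPKM at stage 2, and 0.69, 0.6 and 0.58 FPKM at stage 3. The log2 difference between the lines was therefore -3.36 at stage 1, -2.64 at stage 2 and -0.70 at stage 3.

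Of the 5 members with the highest mean FPKM in TW-1 the beta-glucosidase had a mean ratio of TW-1 over TW-1-M of 4.81. The other 4 were LOC100794675, LOC100805921, XM_003550357.3 and LOC100527275, which had no description in the files used and mean ratios of 1.43 to 1.68. LOC100794675 had 235.58, 378.0 and 431.4 FPKM in TW-1-M and 450.89, 542.34 and 771.01 FPKM in TW-1, a log2 difference of -0.70. LOC100805921 had 175.86, 291.5 and 351.23 FPKM in TW-1-M and 360.79, 397.66 and 440.49 FPKM in TW-1, and its mean ratio of 1.43 was the smallest of the 87. In these 4 genes the gap was 0.04 to 0.14 on the log2 scale, against 0.75 in the beta-glucosidase. With each library scaled to the same summed FPKM or with quantile normalization only 1 of the 5 met the rule under both, the beta-glucosidase.

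Both oxidoreductases and both cytochromes P450 were named as classes of description. XM_003519945.3, described as 1-aminocyclopropane-1-carboxylate oxidase homolog 4-like, had 0.93, 3.66 and 11.28 FPKM in TW-1-M and 19.01, 22.41 and 35.57 FPKM in TW-1 (log2 difference -2.35). Whether it acts in ethylene synthesis was not tested. Of the cytochromes P450, XM_006601735.2 is 85A-like, a family of brassinosteroid synthesis, and had a mean of 0.807 FPKM in TW-1-M and 3.27 FPKM in TW-1. The other, LOC100805931 (93A3-like), had a mean of 0.622 FPKM in TW-1-M and 1.94 FPKM in TW-1. Both were near or below 1 FPKM in TW-1-M, where single libraries carry little weight. XM_003526978.3, a mitochondrial aldehyde dehydrogenase, had a mean of 0.664 FPKM in TW-1-M and 2.53 FPKM in TW-1. LOC732543, for which RefSeq gives the synonym gTMT2, a methyltransferase of tocopherol (vitamin E) synthesis, had 2.53, 3.53 and 4.86 FPKM in TW-1-M and 5.83, 8.37 and 12.08 FPKM in TW-1; this gene was singled out after its values were seen.

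The members described next were also chosen after their values were seen, except the autophagy-related gene XM_006579405.2. LOC100796614, a phosphofructokinase of glycolysis, had a mean of 0.439 FPKM in TW-1-M and 2.56 FPKM in TW-1. XM_006584436.2, a serine hydroxymethyltransferase, had a mean of 1.82 FPKM in TW-1-M and 10.1 FPKM in TW-1, and LOC100786630, a serine--glyoxylate aminotransferase-like gene, had 0.537 FPKM in TW-1-M and 2.85 FPKM in TW-1. LOC100807032, a uroporphyrinogen decarboxylase of heme and chlorophyll synthesis, had a mean of 5.58 FPKM in TW-1-M and 11.2 FPKM in TW-1. No class of metabolism was tested.

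LOC100782129, a trimethylguanosine synthase-like gene for the caps of small nuclear RNAs, had a mean of 0.98 FPKM in TW-1-M and 4.10 FPKM in TW-1. LOC100799369, a subunit of the factor that cleaves and polyadenylates pre-mRNA, had 0.911 FPKM in TW-1-M and 2.47 FPKM in TW-1. Both were rare transcripts in either line. XM_006579405.2 (autophagy-related protein 8f-like), which marks the membranes of autophagy, had 3.61, 8.66 and 12.32 FPKM in TW-1-M and 13.24, 16.89 and 24.62 FPKM in TW-1. XM_014771408.1, a homolog of cell division cycle protein 48, which extracts ubiquitinated proteins, had a mean of 0.149 FPKM in TW-1-M and 1.48 FPKM in TW-1.

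A further pair was likewise chosen after its values were seen. LOC100804182, a glycine-rich structural protein 2-like, had 0, 0 and 0.3 FPKM in TW-1-M, against 0.86, 1.45 and 5.39 FPKM in TW-1. LOC100799009, a probable pectate lyase 4, had a mean of 0.109 FPKM in TW-1-M and 0.93 FPKM in TW-1.

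The difference was present at each stage by the rule, but its size varied. The median log2 difference of the members was -1.09 at stage 1, -0.87 at stage 2 and -1.004 at stage 3, or -0.88 at stage 3 without TW-1-3 replicate 1. Over all genes tested the medians were 0.00, 0.08 and 0.01. The difference was largest in size at stage 1 in 40 members, at stage 2 in 15 and at stage 3 in 32, and without TW-1-3 replicate 1 these numbers were 46, 20 and 21. In 47 members the mean FPKM of TW-1-M was at most 50% of that of TW-1 at all 3 stages, and without that library in 44.

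**Figure D3:**
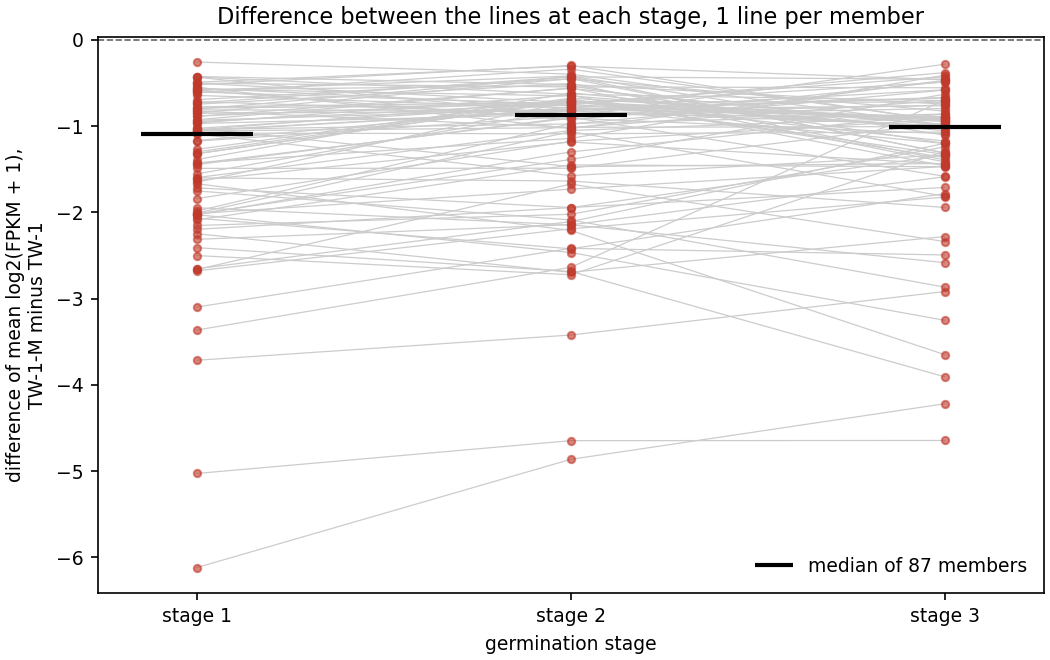
Difference of mean log2(FPKM + 1), TW-1-M minus TW-1, at each stage, with 1 line per member and the median of the 87 members as a black bar. The medians are -1.09, -0.87 and -1.004, and all points lie below 0, as the rule requires.

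A pair of members of unknown function, LOC102663945 and LOC102669418, had their widest difference at root emergence. LOC102663945 had 0, 0 and 0.29 FPKM in TW-1-M, against 2.37, 7.03 and 29.59 FPKM in TW-1. The TW-1 values were 4.81 ± 2.34 FPKM at stage 1, 6.84 ± 3.55 at stage 2 and 19.0 ± 13.4 at stage 3 (SD, n = 3 each), and at stage 3 replicate 1 had 3.91 FPKM and replicates 2 and 3 had 29.59 and 23.44 FPKM. LOC102669418, singled out after its values were seen, showed the same order of libraries at stage 3, with 2.06 FPKM in TW-1-3 replicate 1 and 29.82 and 20.98 FPKM in replicates 2 and 3.

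Taken library by library, the median of the members minus the mean of the TW-1 libraries, in log2(FPKM + 1), lay between -1.17 and -0.87 in TW-1-M and between -0.28 and 0.32 in TW-1. The rule itself puts each TW-1-M median below each TW-1 median. The highest of the TW-1-M libraries was TW-1-M-2 replicate 2, which also held the highest TW-1-M value of 15 members. In TW-1 the highest was TW-1-3 replicate 1, which held the highest TW-1 value of 38 members, and the lowest was TW-1-3 replicate 3. The same median over all genes tested stayed between -0.10 and 0.06 in all 18 libraries.

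**Figure D4:**
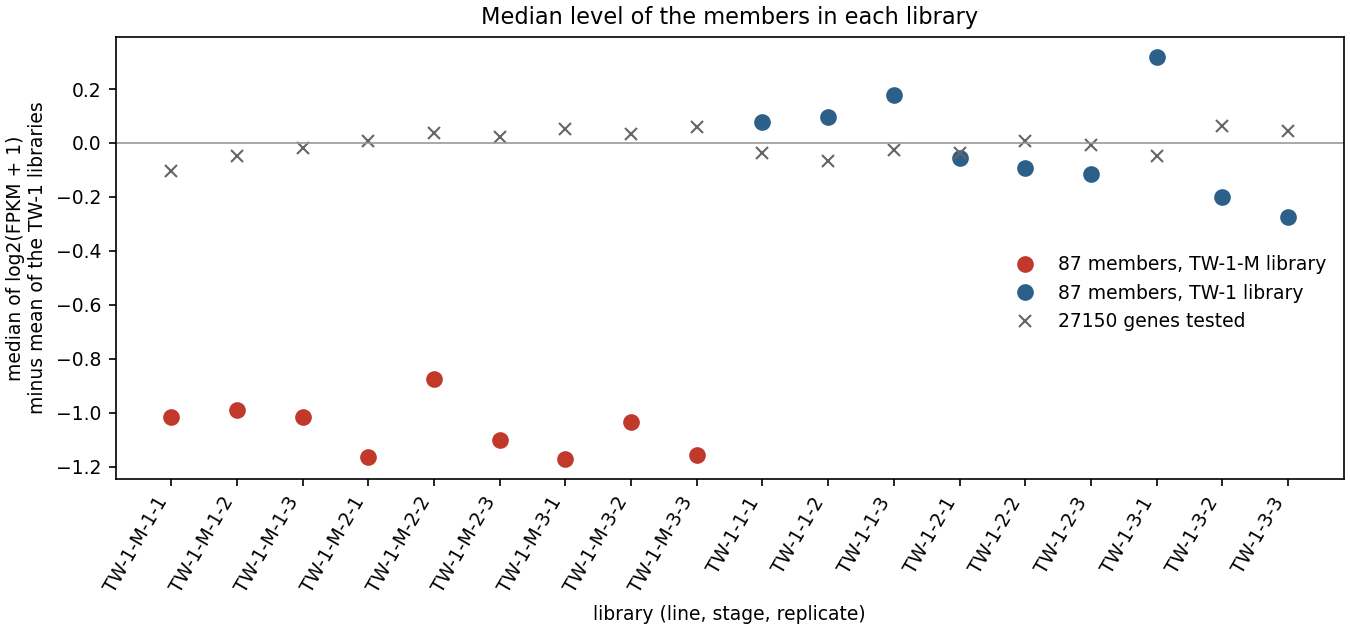
Median over the 87 members (filled points, TW-1-M red and left, TW-1 blue and right) and over all 27150 genes tested (crosses) of log2(FPKM + 1) in each library minus the mean of the 9 TW-1 libraries. The members' medians lie between -1.17 and -0.87 in the TW-1-M libraries and between -0.28 and 0.32 in the TW-1 libraries, an order that the rule requires.

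The change with stage inside each line was tested gene by gene, since the rule did not use it directly. A gene that changes strongly with stage can hardly meet the rule, so members that changed little were favoured by the choice, and nothing about steadiness is read from the counts. Each later stage was compared with stage 1 of its own line with limma on log2(FPKM + 1) in 6 libraries (two-sided), p-values were adjusted by Benjamini-Hochberg over all 27150 genes, and a gene was called at an adjusted p-value below 0.05. The comparisons within a line share the stage 1 libraries. Nothing in the labels says that replicates came from separate cultures or plants, so the p-values measure the spread between these samples, which may be technical.

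In TW-1-M-2 against TW-1-M-1, 2 members were higher and 1 was lower, beside 16.5% of all genes tested that were higher and 11.2% that were lower. The median log2 change was -0.04 over the members and 0.07 over all genes. Without TW-1-M-1 replicate 2, TW-1-M-2 replicate 2 or TW-1-M-2 replicate 3, each in turn, no member was called. At an unadjusted p-value below 0.05 by limma there were 3, 10 and 6 members (3.45%, 11.5% and 6.9%). Of all genes 34%, 32.1% and 34% were at that unadjusted threshold. At the adjusted p-value 4.78%, 4.01% and 7.02% of all genes tested were then called, so the calls fell over all genes as well. In TW-1-M-3 against TW-1-M-1, 5 members were higher and 9 lower, beside 29.5% of all genes that were higher and 24.3% that were lower, with a median log2 change of -0.05 over the members and 0.11 over all genes. The number of members called was 2 without TW-1-M-1 replicate 2, 8 without TW-1-M-1 replicate 3, 3 without TW-1-M-3 replicate 1 and 6 without TW-1-M-3 replicate 3, beside 38.2%, 55.2%, 39.2% and 41.2% of all genes tested.

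The strongest change was in LOC100818740, described as BTB/POZ domain-containing protein POB1-like, one of the proteins whose BTB domain joins targets to a cullin ubiquitin ligase. It fell with stage in TW-1-M, with 106.3, 115.83 and 93.37 FPKM at stage 1, 60.66, 50.84 and 63.59 FPKM at stage 2, and 21.18, 33.08 and 25.75 FPKM at stage 3. The stages of TW-1-M did not overlap. The log2 change was -0.84 ± 0.20 (SE) at stage 2 (limma, adjusted p = 0.0243) and -1.96 ± 0.23 at stage 3 (limma, adjusted p = 0.00129), and the change at stage 3 was called with each of the 6 libraries left out, whereas that at stage 2 was lost without TW-1-M-1 replicate 2, TW-1-M-2 replicate 2 or TW-1-M-2 replicate 3. In TW-1 the gene had 350.39, 385.88 and 330.57 FPKM at stage 1, 264.76, 229.65 and 257.57 FPKM at stage 2, and 366.53, 159.79 and 131.47 FPKM at stage 3, where replicate 1 lay in the range of stage 1.

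The uncharacterized LOC100526925 rose with stage in TW-1-M, with 3.54, 4.08 and 3.56 FPKM at stage 1, 5.87, 9.1 and 7.34 FPKM at stage 2, and 6.42, 6.94 and 6.73 FPKM at stage 3. All libraries of stages 2 and 3 lay above those of stage 1. The log2 change was 0.82 ± 0.22 (SE) at stage 2 (limma, adjusted p = 0.0319) and 0.70 ± 0.18 at stage 3 (limma, adjusted p = 0.0138). The call at stage 3 held with each library left out, and that at stage 2 was lost without TW-1-M-1 replicate 1 or 2 or TW-1-M-2 replicate 2 or 3.

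LOC100802773 is TRANSPARENT TESTA 1-like, and in Arabidopsis the zinc finger protein of this name is needed for flavonoid pigment in the seed coat. It had 0.16, 0.12 and 0.6 FPKM in TW-1-M-1, 0.86, 1.35 and 1.25 FPKM in TW-1-M-2, and 1.06, 0.82 and 0.91 FPKM in TW-1-M-3. In TW-1-M it rose by 0.75 ± 0.20 (SE) on the log2 scale at stage 2 (limma, adjusted p = 0.0305) and by 0.59 ± 0.19 at stage 3 (limma, adjusted p = 0.0352). The call at stage 2 was lost without TW-1-M-1 replicate 1 or 2 or TW-1-M-2 replicate 2 or 3, and that at stage 3 was lost without TW-1-M-1 replicate 1 or 2 or any 1 of the TW-1-M-3 libraries. With quantile normalization neither was called, with log2 changes of 0.38 at stage 2 (limma, adjusted p = 0.116) and 0.11 at stage 3 (limma, adjusted p = 0.608). In TW-1 the values were 4.66, 3.97 and 3.57 FPKM at stage 1, 3.22, 2.3 and 4.31 FPKM at stage 2, and 2.39, 2.34 and 2.77 FPKM at stage 3.

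Among the other members called at stage 3 of TW-1-M, LOC100797959, a chloroplast TATA protein that moves folded proteins into thylakoids, fell to 22.2 ± 8.33 FPKM in TW-1-M-3, against 40.5 ± 9.28 FPKM in TW-1-M-1. The autophagy-related 8f-like gene XM_006579405.2 fell to 5.47 ± 1.62 FPKM in TW-1-M-3, against 10.8 ± 1.89 FPKM in TW-1-M-1 (SD, n = 3 each). The undescribed genes LOC100808703 and LOC100787055 also fell. With quantile normalization LOC100797959 and LOC100787055 were not called (limma, adjusted p = 0.0982 and 0.0739). The same 2 genes were not called with no filter or with the replicate number as a block. In the fit of all 18 libraries LOC100797959 and LOC100808703 were not called (limma, adjusted p = 0.0833 and 0.0788). Apart from LOC100818740 and LOC100526925, all calls of this comparison were lost in at least 1 of the fits with a library left out.

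**Figure D5:**
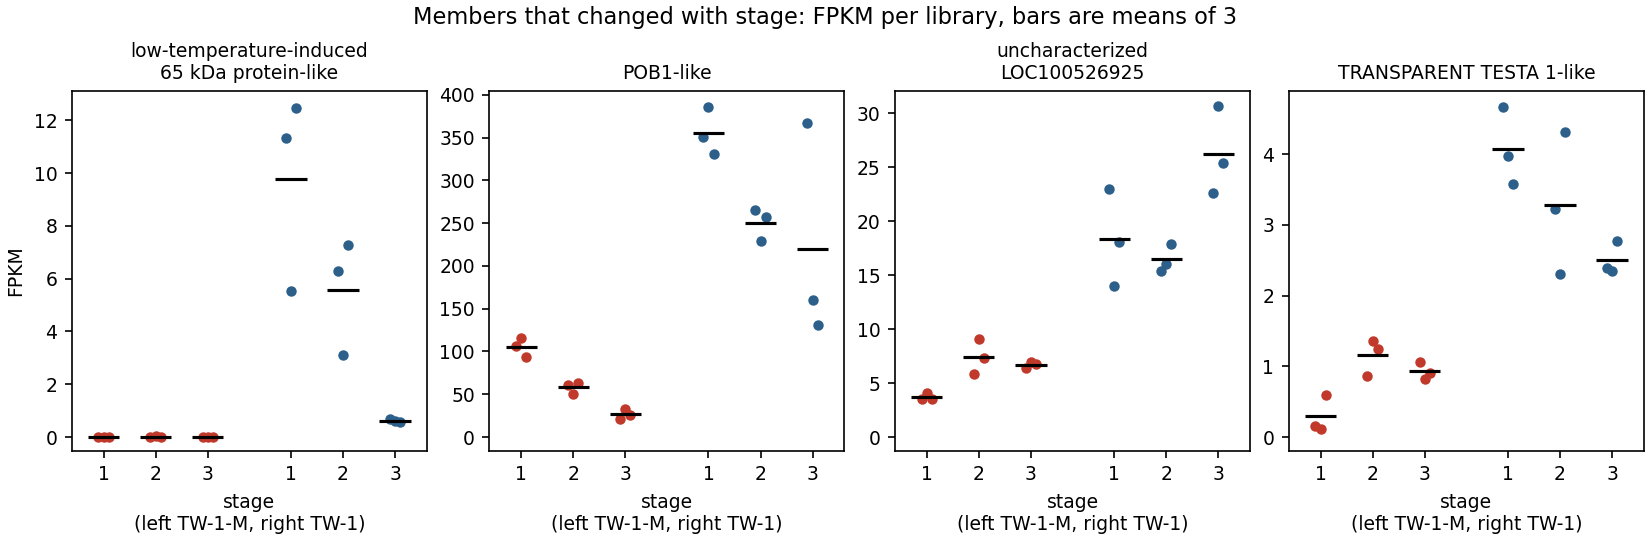
FPKM of 4 members called in a comparison of stages, with 1 point per library, black bars for the means of 3, and TW-1-M (red) left of TW-1 (blue) in each panel. POB1-like falls over the stages in TW-1-M, and the low-temperature-induced gene is at or near 0 in TW-1-M and falls in TW-1.

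In TW-1 few genes of any kind were called. No gene was called in TW-1-2 against TW-1-1 (0% of all genes tested), with 12 members and 3482 genes at an unadjusted p-value below 0.05 by limma, but without TW-1-2 replicate 1 there were 2 members (2.30%) and 1953 of all genes (7.19%) called. In TW-1-3 against TW-1-1 no member was higher and 1 was lower, beside 0.265% of all genes that were higher and 0.726% that were lower. Without TW-1-3 replicate 1, 25 members were called, 3 higher and 22 lower, and 15849 of all genes (58.4%), so that 1 library decided this count for all genes as well. The median log2 change of the members was -0.28 at stage 2 and -0.21 at stage 3, and that of all genes was 0.00 and 0.11.

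The member called in TW-1-3 against TW-1-1 was the low-temperature-induced 65 kDa protein-like gene XM_014768785.1. Its level fell to 0.623 ± 0.0586 FPKM in TW-1-3, against 9.79 ± 3.72 FPKM in TW-1-1 (SD, n = 3 each), a log2 change of -2.67 ± 0.33 (SE; limma, adjusted p = 0.035). The call held without TW-1-3 replicate 1 and was lost without TW-1-3 replicate 2 or 3 or any 1 of the TW-1-1 libraries.

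Whether the difference between the lines changed with stage was tested over the 18 libraries by limma's F test of the interaction of line and stage. The same gene, XM_014768785.1, was the only member called (adjusted p = 0.0203), beside 0.0589% of all genes tested. At an unadjusted p-value below 0.05 there were 16 members, 18.4% of the set, beside 9.78% of all genes. Without TW-1-3 replicate 1 there were 23 members (26.4%) beside 18.5% of all genes. With quantile normalization there were 8 members (9.2%) beside 10.2% of all genes. With FPKM of at least 1 in every library there were 3 of 44 members (6.82%) beside 11.6%. Some of the 16, such as LOC102659541, were at or near 0 in TW-1-M, so their interaction restates the change inside TW-1. XM_014768785.1 passed the filter only through TW-1, since 8 of the 9 TW-1-M libraries were at 0, so a difference from TW-1 was required of it, and its interaction restates the change with stage inside TW-1. With a pseudocount of 0.1 it was not called (adjusted p = 0.0646). The call held in 8 of the 18 fits with a library left out. It was lost without TW-1-1 replicate 3, TW-1-3 replicate 2 or 3, TW-1-M-1 replicate 1 or 2, TW-1-M-2 replicate 2 or 3, or any 1 of the TW-1-M-3 libraries, with an adjusted p-value of at most 0.0941.

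The position of the members was looked at in the order of genes along the chromosomes of a later assembly, Glycine_max_v4.0, in which 72 members were placed. Only LOC102659662 and LOC102659528, both uncharacterized and adjacent to each other, had another member within 10 genes. That is 2.78% of the members placed, beside 2.51% of the other genes tested that had a member as near. LOC102659662 had 0, 0.11 and 1.11 FPKM in TW-1-M and 1.78, 3.61 and 5.88 FPKM in TW-1, and LOC102659528 had 0, 0 and 0.46 FPKM in TW-1-M and 1, 3.45 and 4.25 FPKM in TW-1. In both genes the highest TW-1-M value was that of TW-1-M-3 replicate 2.

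The ubiquitin hydrolase LOC100527718 lay 12 genes from LOC102659528 in this order. Of the genes between them 3 were tested, and all 3 had a lower mean in TW-1-M, with log2 differences between -1.39 and -0.29. Within 25 genes 9 members (12.5%) had another member, beside 6.20% of the other genes tested. In the other 3 stretches between members within 25 genes, 3 of the 7 tested genes between LOC100797959 and LOC100799703 had a lower mean in TW-1-M, 2 of 5 between LOC100804651 and LOC100805931 and 2 of 3 between LOC102659541 and LOC100775463. These shares describe the order of genes and were not tested.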

How the data were processed

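RNA of 18 libraries of germinating soybean seed was sequenced, 9 of TW-1-M and 9 of TW-1. According to the study and its processing notes, the authors used Trimmomatic for trimming and TopHat for mapping, and deposited FPKM per gene from cuffquant and cuffnorm, which scale between libraries, so the values are not counts, and no counting error was computed from them. No library pair held identical values (0 pairs). Tool versions, the use of strand and the handling of reads with several matches are not given in the sources used here. The columns were matched to samples by name.

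Commas within numbers were removed. A gene was kept if it reached an FPKM of 1 in 3 or more of the 18 libraries (27150 of 45955). The rule was applied to FPKM as deposited. Of the 79 genes named by the study as candidates and set aside, 6 could not be paired with an ID of the table. Symbols came from RefSeq (Glycine_max_v4.0), a later assembly than that used for mapping, so no coordinates are given. Sequences were not used here.

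Changes with stage and the interaction were tested by limma 3.58.1 (R 4.3.3; lmFit, then eBayes with trend) on log2(FPKM + 1), with Benjamini-Hochberg adjustment, and the scripts were tested on simulated data. Other values were computed in Python 3.11.15 with pandas 2.3.3 and NumPy 2.4.6, and figures were drawn with matplotlib 3.10.9.

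Members named were the 10 with the widest gap, the 5 with the highest mean in TW-1, those below 0.1 FPKM in all TW-1-M libraries, up to 5 called per comparison, those near another member, 2 on each side of the threshold and up to 3 of each class of description (34 in all), not all of which are printed. A further 11 were named after their values were seen. The members, the lists and these rules were chosen with earlier results of these data known. The alternatives were another pseudocount (0.1), other filters, quantile normalization, scaling to the same summed FPKM, a fit of all 18 libraries, the replicate number as a block, the thresholds of the study, other windows of gene order, and libraries left out.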

Additional observations from a re-analysis of the deposited data

Results flagged for a closer look

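In 1 member, the low-temperature-induced 65 kDa protein-like gene XM_014768785.1, the interaction of line and stage was called (limma F test, adjusted p = 0.0203). TW-1-M was at 0 in 8 of 9 libraries, so the interaction restates the change with stage inside TW-1, and with a pseudocount of 0.1 it was not called (adjusted p = 0.0646). The log2 difference, TW-1-M minus TW-1, was -3.36 at stage 1, -2.64 at stage 2 and -0.70 at stage 3. Over 22 alternatives the adjusted p-value ranged between 0.00675 and 0.0941, and the call was kept in 11. Groups of 3 libraries are too small for a test of single outlying samples.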

How the results depend on the processing

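The number of members was 87 in FPKM as deposited and was sensitive to scaling and filter. It was 37 with each library scaled to the same summed FPKM (36 of them members) and 72 with quantile normalization (54 of them members). 29 members met the rule under both, among them all 10 with the widest gap and 15 of the 19 whose means differed at least 10 times. It was 44 with FPKM of at least 1 in every library, 93 with no filter, and 670 when the lines were separated only within each stage. With 1 library or all libraries of 1 replicate number left out the number was 88 to 197. Under this rule leaving out libraries can only keep or add genes, so this range is not read as stability. The median log2 difference of the 34 named members was -1.76. It was -2.41 with a pseudocount of 0.1 and -2.19 as the log2 ratio of mean FPKM (32 members, without those at 0 in TW-1-M), and -1.88 to -1.55 with libraries left out. All 268 values of the 34 members and of 11 named after their values were seen were below 0 under the alternatives. Except where the libraries were rescaled, the rule fixed this sign in advance, so it is not read as stability.

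For TW-1-M-2 against TW-1-M-1 the number of members called was 3, beside 27.7% of all genes tested. It was 7 with quantile normalization (7 lower and 0 higher, instead of 1 and 2), beside 28.5% of all genes. It was 0 with the thresholds of the study (unadjusted p below 0.05 and log2 change above 1), beside 21.2%. With libraries left out it was 0 to 4, beside 4.01% to 37.2%. For TW-1-M-3 against TW-1-M-1 it was 14, beside 53.8% of all genes. It was 1 with the thresholds of the study, beside 38.4%, and 2 to 14 with libraries left out, beside 38.2% to 55.2%. It was 14 with quantile normalization (1 higher and 13 lower, instead of 5 and 9), beside 52.5%. For TW-1-2 against TW-1-1 it was 0, with 1 under the thresholds of the study, beside 2.8% of all genes. With libraries left out it was 0 to 2, beside 0% to 7.19%. For TW-1-3 against TW-1-1 it was 1. It was 0 with no filter (beside 0.0026% of all genes) and 0 with FPKM of at least 1 in every library (7.27%). It was 18 with all 18 libraries in one fit (beside 9655 of all genes, 35.6%) and 6 with the thresholds of the study (5793, 21.3%). With libraries left out it was 0 to 25, beside 0% to 58.4%. For the interaction it was 1, with 0 at a pseudocount of 0.1 (beside 0.0368% of all genes). It was 0 with FPKM of at least 1 in every library (44 members tested, beside 0.0636% of all genes). With libraries left out it was 0 to 1, beside 0.0258% to 0.457%. The causes were not tested.

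Libraries with the same replicate number did not deviate together in every pair of groups. Their mean correlation was 0.10 (lowest -0.58, highest 0.74), against -0.04 for other numbers. Whether libraries of the same number shared a batch was not tested. With the replicate block the members called were 4, 5, 0 and 0 in the order of the comparisons above. Of all genes tested 30.2%, 48.2%, 0% and 0.00368% were called in these fits. For the interaction with the block 1 member was called, beside 0.0737% of all genes.

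The share of members with another member near was 2.78% within 10 genes or 5 genes, 12.5% within 25 genes and 3.28% for members by quantile normalized values. Motifs in promoters were not searched, because no promoter sequences were used here.

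The table holds no counts, so no counting error was computed, and a value listed at 0 is no proof of absence. With 3 libraries a group, the calls by stage rest on small numbers. Leaving out TW-1-3 replicate 1 gave the 25 called in TW-1-3 against TW-1-1, and leaving out TW-1-2 replicate 1 the 2 in TW-1-2 against TW-1-1.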
